A study of Mus musculus with 4 samples.

Results

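The genes described are 9 lectin-like receptors of natural killer (NK) cells: Klrd1, Klrc1, Klrc2, Klrc3, Klrk1, Klre1, Klri1, Klri2 and Klrg1. They were chosen by name and found through their NCBI Gene numbers, and all 9 were among the 17723 genes with a value in any library. The study sorted NK cells by surface DNAM-1, an activating receptor also called CD226, from the spleens of C57BL/6J mice and sequenced their total RNA. The 4 libraries are DNAM-1+ and DNAM-1- NK cells from the spleen of mice at day 17 after transfer of GFP+ leukaemia cells of the MLL-AF9 model of acute myeloid leukaemia (AML), and DNAM-1+ and DNAM-1- NK cells from normal spleen, labelled day 0. The mice of all 4 libraries are given as 6 to 8 weeks old. The recipients of leukaemia cells were not irradiated, so they kept their own blood and immune cells. Each of the 4 groups holds 1 library, and the labels give neither the number of mice pooled for it nor the gates other than DNAM-1. All levels below are the deposited FPKM (fragments per kilobase of transcript, scaled to the fragments of the library), which allow levels of different genes to be compared.

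These receptors belong to the C-type lectin-like family and let an NK cell read ligands on the cells it meets. CD94, encoded by Klrd1, pairs with an NKG2 chain: with NKG2A (Klrc1) the pair inhibits through tyrosine-based motifs in the NKG2A tail, and with NKG2C (Klrc2) or NKG2E (Klrc3) it signals through an activating adaptor. The CD94 pairs bind the non-classical class I molecule Qa-1 on other cells. NKG2D (Klrk1) forms a pair with itself, not with CD94, and recognises stress-induced ligands on tumour cells. KLRE1 pairs with KLRI1 in an inhibitory receptor or with KLRI2 in an activating one. KLRG1 is an inhibitory receptor for cadherins that marks mature NK cells and effector T cells.

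The libraries held an estimated 9100000 to 9400000 fragments. Cd226 stood at 36.1 FPKM in DNAM-1+ and 0.58 FPKM in DNAM-1- cells of AML spleen, and at 38.6 FPKM in DNAM-1+ and 0.45 FPKM in DNAM-1- cells of normal spleen (the sorted marker itself). All 13 NK marker genes were above 0 in every library, with sums of 8165 FPKM (DNAM-1+) and 7973 FPKM (DNAM-1-) in AML spleen and of 7810.0 and 6877 FPKM in normal spleen. By the limma test described below, 4 of them were higher in DNAM-1+ cells (Ncr1, Tbx21, Txk and Il2rb) and 0 lower, with a median coefficient of 0.11 over the 13. By spleen, 6 of the 13 were higher in DNAM-1+ cells of AML spleen (median log2 ratio -0.0055) and 9 in normal spleen (0.18). Klrk1, Klrd1 and Klre1 had coefficients above 0, like these 4 called markers, and so did Klrc1, Klri1 and Klrg1. The uncalled NK markers went both ways. Klrb1c, Gzma, Itga2 and Cd244a had coefficients above 0. Those of Gzmb (-0.20), Nkg7 (-0.19), Prf1 (-0.10), Sh2d1b1 (-0.10) and Eomes (-0.02) were below 0. Markers of cell types outside the NK lineage differed between the subsets. The 9 B cell markers summed to 231 FPKM (DNAM-1+) and 974 FPKM (DNAM-1-) in AML spleen and to 208 and 1007 FPKM in normal spleen, and the 9 monocyte and macrophage markers to 84.6 and 508 FPKM in AML spleen and to 69.9 and 524.5 FPKM in normal spleen. The sum of the 10 T cell markers went the other way, with 74.4 and 30.2 FPKM in AML spleen and 79.9 and 35.3 FPKM in normal spleen, and so did that of the 5 markers of type 1 innate lymphoid cells (64.8 and 8.02 FPKM, and 62.3 and 7.3 FPKM). Of the 9 T cell markers at 1 FPKM or more in any library, 7 were higher in DNAM-1+ cells of each spleen. Cd8b1 was lower in both spleens (0.67 and 2.11 FPKM, and 2.28 and 5.32 FPKM). None of these 4 marker lists had a gene at 0 in any library. By the same test, 9 of 9 B cell and 8 of 8 tested monocyte and macrophage markers were lower in DNAM-1+ cells, and 4 of 5 tested T cell and 4 of 4 tested type 1 innate lymphoid markers were higher. Plasma cell, neutrophil and dendritic markers summed to less in both DNAM-1+ libraries too, and leukaemia and progenitor markers to more (29.6 and 14.7 FPKM in AML spleen, 19.8 and 9.33 FPKM in normal spleen). Most of the latter sum was Kit, also an NK maturation gene in the lists below (25.3 and 9.78 FPKM, and 17.9 and 7.86 FPKM). Mpo of the same list was lower in DNAM-1+ cells (1.58 and 2.29 FPKM, and 0.25 and 0.26 FPKM). Of the 3 genes of that list at 1 FPKM or more in any library, 2 were higher in DNAM-1+ cells of each spleen. Markers of other innate lymphoid cells summed to at most 1.64 FPKM, with Il22 at 0 in all 4 libraries. The part of such cells in the values below was not tested, and in bulk RNA a smaller share of cells with a transcript cannot be told apart from less transcript per cell.

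The family was abundant except for Klri1. In the order of their mean level, Klrd1 lay between 352 and 448 FPKM over the 4 libraries, Klrk1 between 324 and 419.7, Klre1 between 272.5 and 347, Klrc2 between 260.2 and 361, Klrc1 between 127 and 291, Klri2 between 143 and 160.4, Klrc3 between 118 and 138, Klrg1 between 98.9 and 134, and Klri1 between 9.53 and 23.6. Neighbours in this order overlapped in their ranges over the libraries, except that Klrc3 lay below every value of Klri2 and Klri1 below every value of Klrg1. Klrd1, the common chain of the CD94 receptors, ranked between 123 and 162 from the top among protein-coding genes, and Klri1 between 3332 and 6575. The 9 genes together summed to 2190.0 FPKM in DNAM-1+ and 1972 FPKM in DNAM-1- cells of AML spleen, and to 2056 and 1792 FPKM in normal spleen. The log2 ratio of the sums was 0.15 in AML spleen and 0.20 in normal spleen. The share of Klrc1 in the sum differed more: it gave 13.3% of it in DNAM-1+ and 7.84% of it in DNAM-1- cells of AML spleen, and 11.7% and 7.08% in normal spleen.

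**Figure D1:**
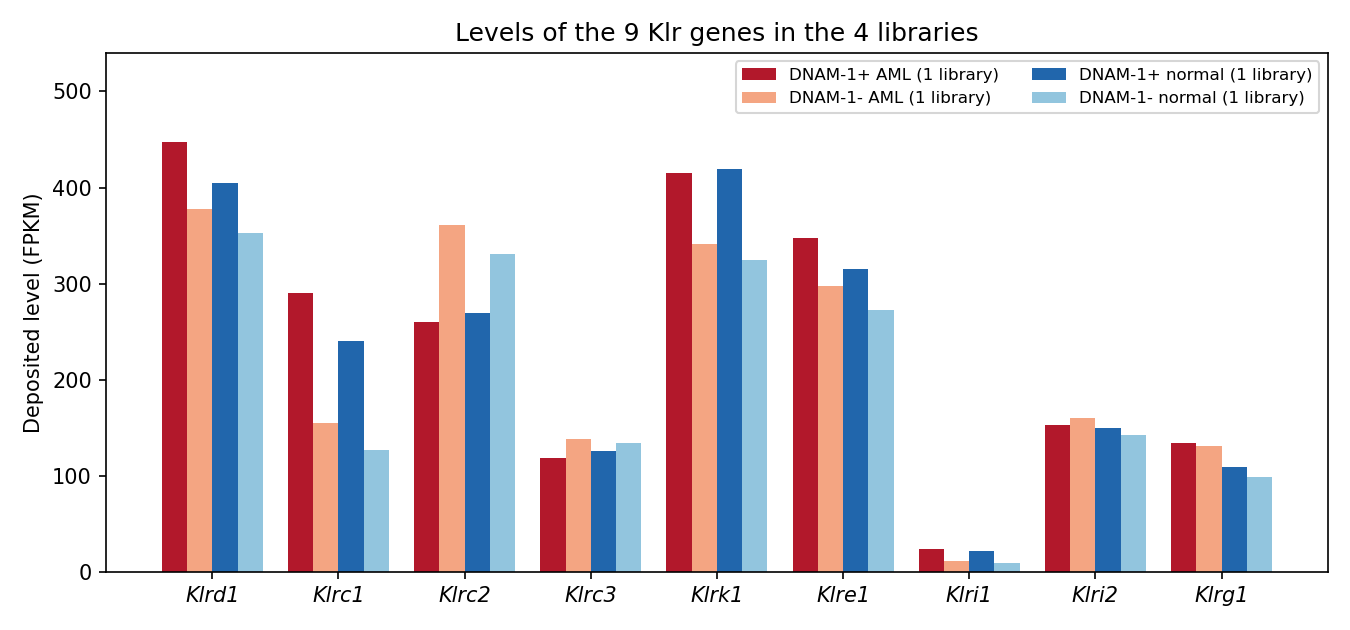
Deposited level in FPKM (y axis, from 0) of the 9 genes (x axis), with 1 bar for each of the 4 libraries and no replicates. The bars of Klrc1 and Klri1 are higher in both DNAM-1+ libraries, those of Klrc2 higher in both DNAM-1- libraries, and those of Klri2 are close to level.

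The comparison of DNAM-1+ with DNAM-1- cells asked how the subsets differ in their receptors. A pair of measures was used. The first is the log2 ratio of 2 libraries after adding 1 FPKM to each, with a 95% interval that covers counting error alone and rests on approximate read numbers, and it has no replicate check. The second is a limma fit to all 4 libraries with subset and spleen as terms, which tests the mean subset difference over both spleens with 1 residual degree of freedom, so that its error is largely borrowed from other genes. By limma, 3 of the 9 genes were higher in the DNAM-1+ subset (Klri1, Klrc1 and Klrk1) and 1 was lower (Klrc2), where 7.35% of all 9074 genes tested were higher and 8.38% lower. With no floor on low values none of the 4 calls held (adjusted p between 0.117 and 0.171), and 0 genes of any kind passed. Centred on the NK markers, 280 genes were higher and 1047 lower, against 667 and 760 in the values as deposited. The median coefficient of the 9 genes was 0.215 (log2), beside 0.01 over all genes tested. Klri1 alone, 1 of the 9, reached 2-fold higher in AML spleen (0.894% of all genes did) and again in normal spleen (1.28%), and 0 of the 9 reached 2-fold lower in AML spleen (3.19%) or normal spleen (3.97%).

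Klrc1, which encodes the inhibitory NKG2A chain, stood at 291 FPKM in DNAM-1+ and 155 FPKM in DNAM-1- cells of AML spleen, and at 240.3 FPKM in DNAM-1+ and 127 FPKM in DNAM-1- cells of normal spleen. Both DNAM-1+ libraries lay above both DNAM-1- libraries, as they did for Klrd1, Klrk1, Klre1 and Klri1. The share of all genes with such a separation was not counted. The log2 ratio of Klrc1 was 0.91 in AML spleen (interval 0.80 to 1.01) and 0.92 in normal spleen (0.80 to 1.03), just under 2-fold in each. limma gave a rise of 0.91 (SE 0.06, adjusted p = 2e-04, higher in 2 of 2 spleens). Its coefficient was the 120th highest of all 9074, and the 7th highest among the 741 genes that reach 100 FPKM in any library. Without the DNAM-1- library of normal spleen, and with subset as the single term, the rise was 0.77 and no longer passed (limma adjusted p = 0.069).

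Klrc2, which encodes the activating NKG2C chain, went the other way. It stood at 260.2 FPKM in DNAM-1+ and 361 FPKM in DNAM-1- cells of AML spleen, and at 269 FPKM in DNAM-1+ and 331 FPKM in DNAM-1- cells of normal spleen. The subsets again did not overlap, but neither did they for Klrc3, which was not called. The log2 ratios of Klrc2 were -0.47 (interval -0.54 to -0.40) and -0.30 (-0.37 to -0.22), and limma gave -0.38 (SE 0.07, adjusted p = 0.0132, lower in 2 of 2 spleens). That call was lost without any 1 of the 4 libraries, with subset as the single term (adjusted p between 0.111 and 0.21), and without the mean-variance trend (adjusted p = 0.0703). Klrc3, the gene of NKG2E, was at 118 FPKM in DNAM-1+ and 138 FPKM in DNAM-1- cells of AML spleen, and at 126 and 134 FPKM in normal spleen. Its limma coefficient of -0.15 (SE 0.06) did not pass (adjusted p = 0.173; 0.0395 and a coefficient of -0.27 when the libraries were centred on the NK markers), and its log2 ratio was -0.22 in AML spleen (counting interval -0.36 to -0.08) and -0.09 in normal spleen (-0.22 to 0.05, which includes 0).

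Within a library, where neither scaling nor cells that express neither gene can move it, the ratio of Klrc1 to Klrc2 was 1.12 for DNAM-1+ and 0.43 for DNAM-1- cells of AML spleen, and 0.89 for DNAM-1+ and 0.38 for DNAM-1- cells of normal spleen. As counted by the authors, NKG2A and NKG2C transcripts were near parity in both DNAM-1+ libraries, and NKG2C transcripts were the more abundant in both DNAM-1- libraries. The way in which reads shared by these genes were split, taken up below, could move this ratio. On the log2 scale the subsets differed in this ratio by 1.38 in AML spleen and 1.22 in normal spleen. The sum of Klrc1, Klrc2 and Klrc3 differed by a log2 ratio of 0.03 in AML spleen (669 FPKM in DNAM-1+ and 653 FPKM in DNAM-1- cells) and of 0.10 in normal spleen (636 and 592 FPKM). Klrc1 made up 43.4% of that sum in DNAM-1+ and 23.7% of it in DNAM-1- cells of AML spleen, and 37.8% and 21.4% in normal spleen.

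**Figure D2:**
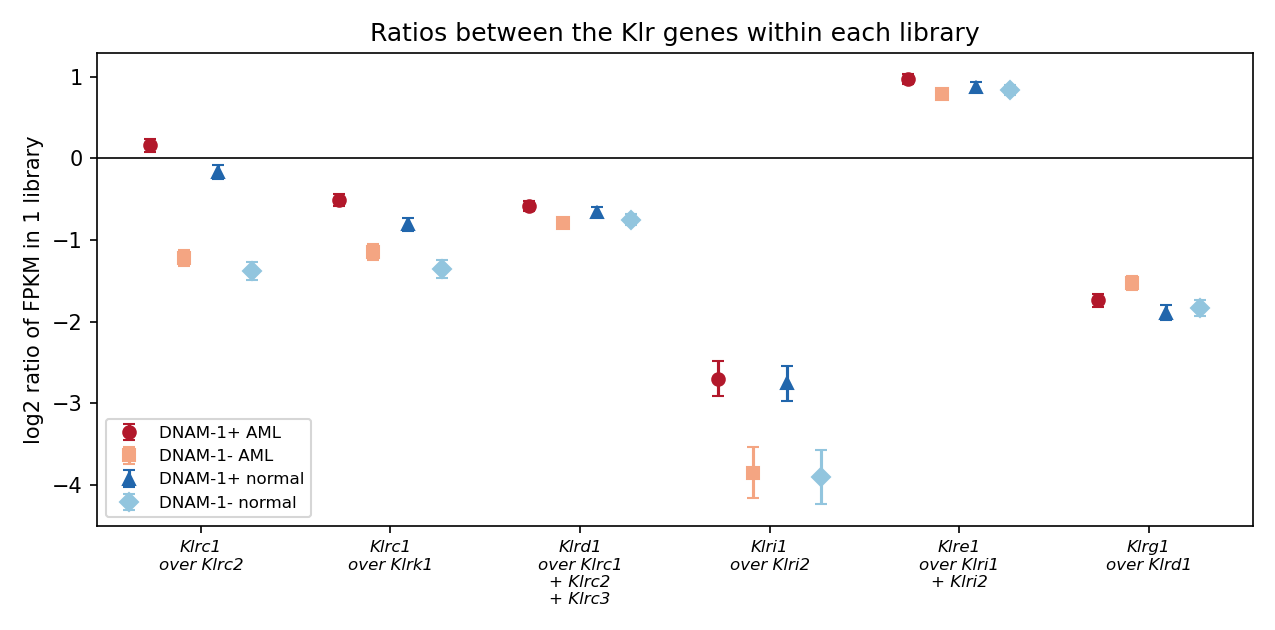
Log2 ratio of the FPKM of 1 gene over another or over a sum (y axis) for 6 pairings of the genes (x axis) in each of the 4 libraries; bars are 95% intervals for counting error. Klrc1 over Klrc2 lies between -0.16 and 0.16 in DNAM-1+ and between -1.38 and -1.22 in DNAM-1- cells, while Klre1 over the sum of Klri1 and Klri2 stays between 0.80 and 0.97.

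The 3 Klrc genes are near copies, and this bears on their separate values. Of the 50-base windows in the longest GENCODE transcript of Klrc1, 38.1% were also found in transcripts of Klrc2, and of those of Klrc3, 35.0% were found in Klrc2. Reads from such stretches can be split between the genes by the authors' counting, so each Klrc value is uncertain where its sum is less so. For Klrd1, Klrk1, Klre1 and Klrg1 no such window was found in another gene (0.0% each), and for Klri1 it was 5.8%, all of it in Klri2. The genes also differ in their upstream sequence. The 250 bases before the annotated start (RefSeq, GRCm38.p6, chromosome 6, minus strand) are shown for the 3 Klrc genes, because Klrc1 differed between the subsets in the opposite direction from Klrc2, and for Klri1, which differed in the same direction as Klrc1. The files' own genome build is not given in the sources used here, and for Klrc2 the second annotated start is shown, chosen because it lines up with that of Klrc3. Capitals mark the Runx core TGTGGT or its reverse complement ACCACA.
Klrc1, chr6:129678974-129679223: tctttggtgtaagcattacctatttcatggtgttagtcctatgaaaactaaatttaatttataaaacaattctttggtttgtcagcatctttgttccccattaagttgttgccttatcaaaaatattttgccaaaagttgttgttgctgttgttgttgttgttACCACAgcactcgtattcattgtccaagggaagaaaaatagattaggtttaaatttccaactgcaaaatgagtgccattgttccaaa
Klrc2, chr6:129660557-129660806: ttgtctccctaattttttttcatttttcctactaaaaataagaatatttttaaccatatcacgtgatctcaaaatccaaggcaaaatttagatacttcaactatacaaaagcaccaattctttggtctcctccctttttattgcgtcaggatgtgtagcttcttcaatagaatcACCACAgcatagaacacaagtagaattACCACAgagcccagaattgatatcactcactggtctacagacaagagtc
Klrc3, chr6:129643289-129643538: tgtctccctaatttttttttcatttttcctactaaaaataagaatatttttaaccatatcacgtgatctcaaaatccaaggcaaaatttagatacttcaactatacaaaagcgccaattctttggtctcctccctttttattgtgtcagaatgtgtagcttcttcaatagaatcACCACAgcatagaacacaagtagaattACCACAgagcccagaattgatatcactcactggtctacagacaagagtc
Klri1, chr6:129717133-129717382: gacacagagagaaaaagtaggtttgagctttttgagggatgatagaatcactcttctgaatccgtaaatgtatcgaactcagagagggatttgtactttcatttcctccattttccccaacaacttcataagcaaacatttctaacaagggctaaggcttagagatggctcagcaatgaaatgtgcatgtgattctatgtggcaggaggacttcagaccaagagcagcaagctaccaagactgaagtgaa
In a global alignment Klrc2 and Klrc3 shared 98.4% of these bases, a value that the choice of start raised: with the first start of Klrc2 it was 82.4%. Klrc1 and Klrc2 shared 52.0% with either start, and Klrc1 and Klri1 52.8%. The core stood 1 time in the window of Klrc1, 2 times each in those of Klrc2 and Klrc3, and was not among the letters of the Klri1 window. Of the 6 genes with an entry in the promoter table (Klrc1, Klrc2, Klrc3, Klrk1, Klre1 and Klri1), 5 held the core on either strand in such a window, as did 15.9% of 27025 genes. In both counts a gene was included if any of its annotated starts had the core. Klre1 had it before its first start and not before its second. The near-identical windows of Klrc2 and Klrc3 are not independent entries in the count of 5. A T-box motif, GGTGTGA on either strand, was found in 0 of these 6 and in 3.84% of all genes.

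Klrd1, the shared CD94 chain, was at 448 FPKM in DNAM-1+ and 378 FPKM in DNAM-1- cells of AML spleen, and at 405 FPKM in DNAM-1+ and 352 FPKM in DNAM-1- cells of normal spleen. The log2 ratios of 0.24 (interval 0.18 to 0.31) and 0.20 (0.13 to 0.27) were beyond counting error, but the limma coefficient of 0.22 (SE 0.06) missed the threshold (adjusted p = 0.0502). It passed under 4 alternatives (adjusted p between 0.0175 and 0.0377), namely a floor of 20 FPKM, median-of-ratios scaling, quantile normalization and protein-coding genes alone, the last of them chosen after seeing the data. Centred on the NK markers the coefficient was 0.11 (adjusted p = 0.284), and without 1 library at a time the adjusted p lay between 0.194 and 0.566. Klrd1 amounted to 0.67 of the Klrc sum for DNAM-1+ and 0.58 of it for DNAM-1- cells of AML spleen, and to 0.64 and 0.60 in normal spleen. On the log2 scale the subsets differed in this ratio by 0.21 in AML spleen and 0.10 in normal spleen, where the log2 ratio of the Klrc sum itself was 0.03 and 0.10.

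Klrk1, the gene of NKG2D, was at 415 FPKM in DNAM-1+ and 341 FPKM in DNAM-1- cells of AML spleen, and at 419.7 FPKM in DNAM-1+ and 324 FPKM in DNAM-1- cells of normal spleen. The log2 ratios were 0.28 (interval 0.22 to 0.34) and 0.37 (0.31 to 0.43). It rose in the limma fit by 0.33 (SE 0.06, adjusted p = 0.0157, higher in 2 of 2 spleens). The call was lost without any 1 of the 4 libraries, with subset as the single term (adjusted p between 0.117 and 0.263), without the mean-variance trend (adjusted p = 0.0786) and when the libraries were centred on the 13 NK markers (0.21, adjusted p = 0.0564). Within a library, Klrc1 amounted to 0.70 of the level of Klrk1 for DNAM-1+ and 0.45 of it for DNAM-1- cells of AML spleen, and to 0.57 and 0.39 of it in normal spleen.

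Of the KLRE1 receptors, Klri1, the inhibitory partner, had the largest coefficient of the 9 genes with 1 FPKM added (with 5 FPKM added, Klri1 had 0.86 and Klrc1 0.89). It was at 23.6 FPKM in DNAM-1+ and 11.1 FPKM in DNAM-1- cells of AML spleen, and at 22.1 FPKM in DNAM-1+ and 9.53 FPKM in DNAM-1- cells of normal spleen. As the lowest of the family it rested on about 184, 85, 174 and 73 reads (DNAM-1+ and DNAM-1- of AML spleen, then of normal spleen), so its intervals were wide: the log2 ratio was 1.02 in AML spleen (0.65 to 1.39) and 1.13 in normal spleen (0.74 to 1.53). limma gave a rise of 1.08 (SE 0.07, adjusted p = 0.000261, higher in 2 of 2 spleens), the 79th highest of 9074 coefficients. Leaving out any 1 library did not end this call (adjusted p between 0.00902 and 0.0192). It was under 2-fold in both spleens with 5 FPKM added, or when centred on the NK markers.

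Klri2, the activating partner, was at 153 FPKM in DNAM-1+ and 160.4 FPKM in DNAM-1- cells of AML spleen, and at 149 and 143 FPKM in normal spleen. The log2 ratio was -0.06 in AML spleen and 0.06 in normal spleen, and the limma coefficient 0.00 (SE 0.06, adjusted p = 0.994), with a sign that changed under several alternatives. Klri1 therefore amounted to 0.15 of the level of Klri2 in both DNAM-1+ libraries, against 0.07 in both DNAM-1- libraries, a log2 difference of 1.15 in each spleen. Klre1, their common chain, was at 347 FPKM in DNAM-1+ and 298 FPKM in DNAM-1- cells of AML spleen, and at 315 FPKM in DNAM-1+ and 272.5 FPKM in DNAM-1- cells of normal spleen. Its log2 ratios of 0.22 (interval 0.16 to 0.29) and 0.21 (0.14 to 0.28) were close to those of Klrd1, and the limma coefficient of 0.21 (SE 0.06) did not pass (adjusted p = 0.054), though it passed under the same 4 alternatives as Klrd1 (adjusted p between 0.0351 and 0.0414). Centred on the NK markers it was 0.10 (adjusted p = 0.306), and without 1 library at a time the adjusted p lay between 0.219 and 0.6.

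Klrg1 was at 134 FPKM in DNAM-1+ and 131 FPKM in DNAM-1- cells of AML spleen, and at 109 FPKM in DNAM-1+ and 98.9 FPKM in DNAM-1- cells of normal spleen. Its log2 ratio was 0.03 in AML spleen (interval -0.06 to 0.13) and 0.14 in normal spleen (0.03 to 0.25). The limma coefficient of 0.09 (SE 0.06) did not pass (adjusted p = 0.413), and its sign turned when the libraries were centred on the NK markers (-0.03). Cd27, a marker of the earlier stage of NK maturation, rose (63.4 against 36.5 FPKM in AML spleen and 67.9 against 38.6 FPKM in normal spleen, limma adjusted p = 0.000467).

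**Figure D3:**
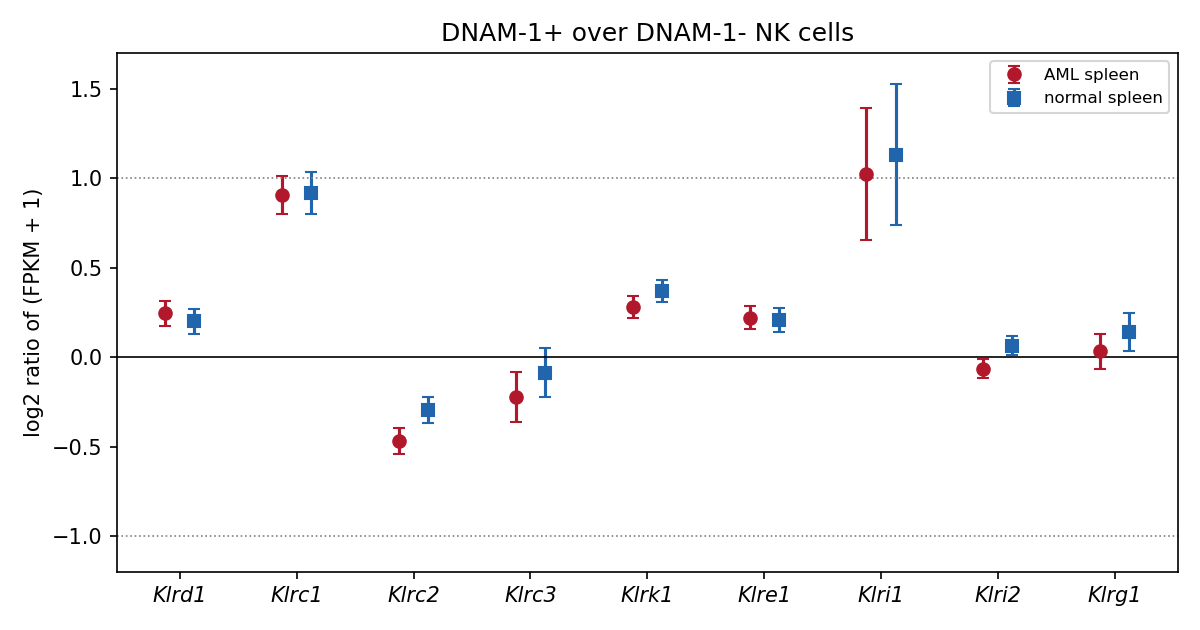
Log2 ratio of DNAM-1+ over DNAM-1- cells (y axis, after adding 1 FPKM) for the 9 genes (x axis) in AML spleen (circles) and normal spleen (squares), with 95% intervals for counting error; dotted lines mark 2-fold. Klrc1 and Klri1 lie between 0.91 and 1.13, Klrc2 between -0.47 and -0.30, and the other 6 genes between -0.22 and 0.37.

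The log2 ratio in AML spleen minus that in normal spleen was -0.01 for Klrc1, 0.04 for Klrd1, 0.01 for Klre1, -0.14 for Klrc3, -0.11 for Klrg1 and -0.11 for Klri1, each inside the counting interval of such a difference. It was -0.17 for Klrc2 (counting error ± 0.10) and -0.13 for Klri2 (± 0.08), beyond counting error, and -0.089 for Klrk1 (± 0.086), only just beyond it. These intervals rest on approximate read numbers and do not cover reads shared between the Klrc genes. With 1 library a group, these differences between the spleens were not tested.

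Between AML and normal spleen none of the 9 genes was called. In DNAM-1+ cells 0 of the 9 genes were at least 2-fold higher (0.311% of all genes) or lower (0.346%), and in DNAM-1- cells again 0 were higher (0.193%) or lower (0.397%). limma called 0 of the 9 higher in AML (0.0661% of all genes) and 0 lower (0.287%), and 2 of the 9, Klrg1 and Klrc1, had an unadjusted p below 0.05, as did 12.5% of all genes. Klrg1 was the furthest. Both AML libraries (134 and 131 FPKM in DNAM-1+ and DNAM-1- cells) lay above both normal libraries (109 and 98.9 FPKM). Such a separation was also seen for Klri2, and its share over all genes was not counted. The log2 ratio of Klrg1 was 0.29 in DNAM-1+ (interval 0.19 to 0.39) and 0.40 in DNAM-1- cells (0.30 to 0.51), and the limma coefficient of 0.35 (SE 0.06) did not pass (adjusted p = 0.109, higher in 2 of 2 subsets). It passed with genes under 20 FPKM left out (adjusted p = 0.0428), after quantile normalization (0.033) and among protein-coding genes alone (0.0365), a choice made after seeing the data. It did not pass with no floor on low values (limma adjusted p = 0.673), without the mean-variance trend (0.371) or centred on the NK markers (0.137). Without 1 library at a time, and with spleen as the single term, the coefficient lay between 0.28 and 0.42. Against Klrd1 in the same library, Klrg1 stood at 0.30 in AML and 0.27 in normal spleen for DNAM-1+ cells, and at 0.35 in AML and 0.28 in normal spleen for DNAM-1- cells.

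Klrc1 was at 291 FPKM in AML and 240.3 FPKM in normal spleen in DNAM-1+ cells, and at 155 FPKM in AML and 127 FPKM in normal spleen in DNAM-1- cells. The log2 ratios were 0.27 (interval 0.18 to 0.37) and 0.28 (0.15 to 0.41), and the limma coefficient of 0.28 (SE 0.06) did not pass (adjusted p = 0.164). The other 7 genes had log2 ratios between -0.09 and 0.14 in DNAM-1+ cells and between 0.04 and 0.20 in DNAM-1- cells. Over all 9 the median was 0.09 for DNAM-1+ and 0.13 for DNAM-1- cells, beside 0.01 and -0.001 over all genes. Centring on the NK markers lowered every AML coefficient by 0.124. It left 0.23 for Klrg1 and 0.15 for Klrc1, and turned those of Klrc2, Klrd1, Klrk1 and Klri2 below 0. Other markers also differed between the spleens. The leukaemia and progenitor list summed to 29.6 FPKM in AML and 19.8 FPKM in normal spleen for DNAM-1+ cells, and to 14.7 and 9.33 FPKM for DNAM-1- cells, and the neutrophil list to 61.4 and 90.1 FPKM and to 127.6 and 166 FPKM. Kit gave most of the leukaemia and progenitor sums (25.3 and 17.9 FPKM for DNAM-1+ cells, 9.78 and 7.86 FPKM for DNAM-1- cells). The rest of this list was too low to be tested, but was also higher in AML spleen. Mpo was at 1.58 and 0.25 FPKM (AML and normal spleen) for DNAM-1+ cells, and at 2.29 and 0.26 FPKM for DNAM-1- cells. In the same order, Cd34 was at 0.58 and 0.04, and 0.5 and 0.05 FPKM. Hoxa9 was at 0.32 and 0.04, and 0.18 and 0.04 FPKM. Elane was at 0.24 and 0.12, and 0.5 and 0.13 FPKM, and Meis1 at 1.56 and 1.42, and 1.44 and 0.99 FPKM. The part of cells with these markers in the AML results was not tested.

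**Figure D4:**
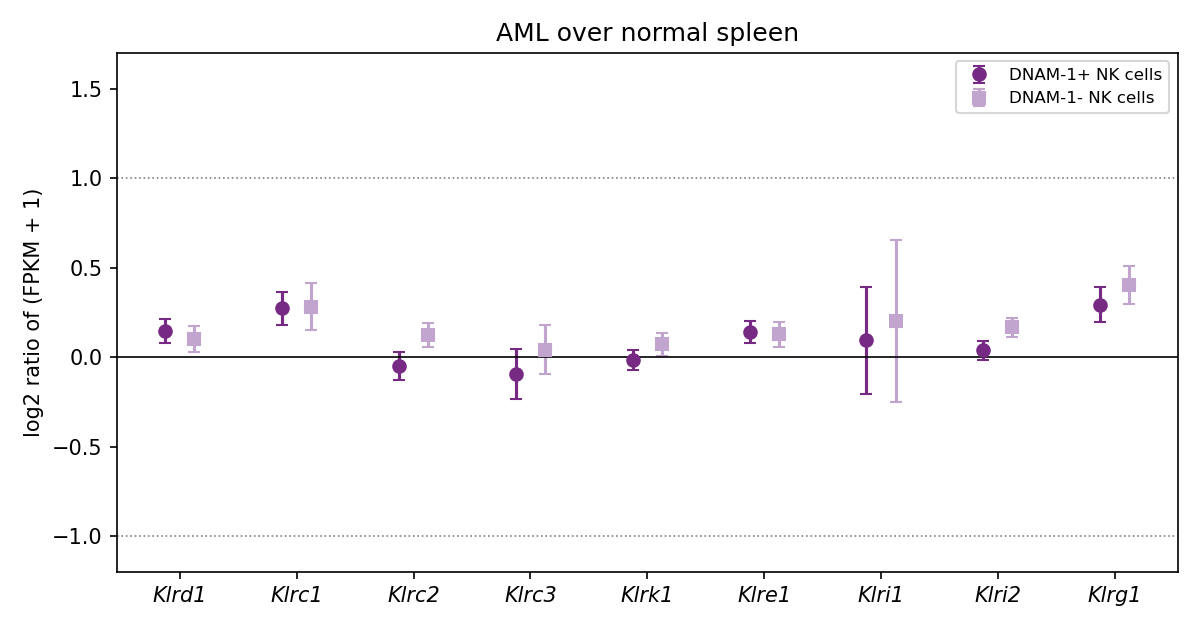
Log2 ratio of AML over normal spleen (y axis, after adding 1 FPKM) for the 9 genes (x axis) in DNAM-1+ (circles) and DNAM-1- cells (squares), with 95% intervals for counting error; dotted lines mark 2-fold. Klrg1 and Klrc1 lie between 0.27 and 0.40, and the other 7 genes between -0.09 and 0.20.

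Genes that work with these receptors were listed by role. Over all 9074 genes tested, limma called 7.35% higher and 8.38% lower in DNAM-1+ cells. Of 13 ligand genes, 2 were abundant enough to be tested and 0 passed: H2-T23, which encodes Qa-1, was at 242 and 230.1 FPKM (DNAM-1+ and DNAM-1-) in AML spleen and at 249 and 234 FPKM in normal spleen, and the NKG2D ligand gene Ulbp1 at 7.45 and 4.55 FPKM and at 6.58 and 5.03 FPKM. Of 4 adaptor genes 1 rose in DNAM-1+ cells and 0 fell. It was Hcst, which encodes DAP10, the adaptor of NKG2D (93.8 against 58.2 FPKM in AML spleen and 64.2 against 54.3 FPKM in normal spleen, limma coefficient 0.46, SE 0.11, adjusted p = 0.0357). Tyrobp, the gene of the adaptor DAP12, was near level at 989 and 937 FPKM and at 1001 and 947 FPKM (limma adjusted p = 0.412). Of 11 tested genes of activating signalling, 3 rose (Lck, Lat and Zap70) and 1 fell (Syk). Most T cell markers were also higher in DNAM-1+ cells, and B cell and monocyte markers lower. The part of such cells in these list results was not tested.

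Of 6 genes of inhibitory phosphatases and their partners, 0 rose and 2 fell. The shares over all genes tested, 7.35% higher and 8.38% lower, apply to this list and to those that follow. Ptpn6, which encodes SHP-1, a phosphatase that inhibitory lectin receptors recruit, was at 120.3 FPKM in DNAM-1+ and 189.8 FPKM in DNAM-1- cells of AML spleen, and at 110.5 and 192.5 FPKM in normal spleen (limma coefficient -0.72, SE 0.06, adjusted p = 0.000875). B cells and monocytes also express Ptpn6, and their markers were lower in DNAM-1+ cells (median log2 ratios of -1.96 and -2.43 in AML spleen and -2.14 and -2.84 in normal spleen); their part in this difference was not tested. Inppl1, a lipid phosphatase gene, fell as well (8.88 against 11.9 FPKM and 9.06 against 11.9 FPKM, limma adjusted p = 0.0295). Of 12 genes of the NK maturation stage, 4 rose (Il7r, Thy1, Kit and Cd27) and 3 fell (Cma1, Zeb2 and Cx3cr1, named after their values were seen); Il7r is also a marker of type 1 innate lymphoid cells in the lists above, and Kit of progenitors. Of 18 tested lectin genes of the Klra and Klrb groups, 3 rose and 7 fell. Klrb1b was at 195.6 and 63.6 FPKM in AML spleen and at 178 and 51.4 FPKM in normal spleen, and Klra4, which encodes a Ly49 receptor, at 277 and 646 FPKM and at 295 and 667 FPKM. Near-identical Klra copies can share reads. Between AML and normal spleen, 0 genes of these lists were called.

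Genes with the most similar pattern over the 4 libraries were sought among the 4282 protein-coding genes that reach 20 FPKM somewhere, by the distance between log2 levels centred on each gene's mean. The nearest to Klrc1 were Hopx (distance 0.16), Klri1 (0.22) and Gpc1 (0.22), and the nearest to Klri1 were Klrc1 (0.22), Hopx (0.23) and Cd7 (0.24), so each of these 2 receptor genes stood among the 3 nearest of the other. Hopx was at 53 FPKM in DNAM-1+ and 28 FPKM in DNAM-1- cells of AML spleen, and at 47.2 and 26 FPKM in normal spleen. The nearest to Klrg1 were Kcnj8 (0.07), Btg3 (0.08) and Ostm1 (0.11), and to Klrc2 N4bp1, Plekhm1 and Zc3h10 (0.05 to 0.06). Distances were 0.01 to 0.02 for Klrd1 (Wdtc1, Zyx and Ptger4), 0.02 for Klre1 (Cerkl, Furin and Slc25a12), 0.02 for Klrc3 (Atp2c1, Mcts1 and Jarid2), 0.02 for Klri2 (Wnk1, Ccny and Acd) and 0.03 for Klrk1 (Aebp2, Atp11b and Utrn). In the RefSeq gene order of GRCm38.p6, Klre1, Klrd1, Klrk1, Klrc3, Klrc2, Klrc1, Klri1 and Klri2 follow each other with no other protein-coding gene between them, so that Klrc1 and Klri1, the genes with the largest rises, are neighbours, while Klrg1 lies apart on the same chromosome.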

How the data were processed

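RNA-seq of 4 libraries of sorted splenic NK cells, 1 a group, was used as the deposited FPKM per the file headers, which the authors give in 2 decimals under NCBI Gene numbers for genes above 0 only. An unlisted gene was taken as 0. Bowtie2 2.2.5 and RSEM are named in the submitters' processing notes, with no role. The genome build, annotation and strand setting are not given in the sources used here. Symbols came from the RefSeq table of GRCm38.p6 (17668 of 17723 genes matched). The members and lists were chosen with earlier results of these data known.

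Log2 ratios used FPKM + 1, and a 2-fold call asked for 5 FPKM in the higher library. For the 9074 genes that reach 5 FPKM in at least 1 library, log2(FPKM + 1) was fitted in limma 3.58.1 under R 4.3.3 (trend on, subset and spleen as terms). A call needed a two-sided p below 0.05 after Benjamini-Hochberg adjustment over these genes. The fit was also run on simulated data with 2-fold changes and normal noise, its spread taken from the fit itself. That run held no shared reads and no differences in cell content. It does not bear on the smaller differences reported here. With 1 library a group, the limma error is the departure from additivity, so p-values do not measure the spread between mice.

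Depth (9300000, 9100000, 9400000 and 9100000 fragments in DNAM-1+ AML, DNAM-1- AML, DNAM-1+ normal and DNAM-1- normal) rests on the FPKM increments seen for short microRNA genes (55 to 100 nt), taken as 1 fragment each. Read numbers used the median GENCODE M21 transcript length, and their 95% intervals cover counting error only. Genes named are the 9 members, Cd226, up to 4 called genes a list, and the 3 nearest in pattern. Motifs were sought in the 250 bases before RefSeq starts. Alternatives were pseudocounts of 0.1 and 5, floors of 0 and 20 FPKM, 4 other scalings, no trend, 1 term alone, leaving out each library and, added later, protein-coding genes alone.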

Additional observations from a re-analysis of the deposited data

Results flagged for a closer look

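The 4 values here were noted because the same contrast had opposite signs in 2 groups of 1 library each, and none of these differences was tested. The DNAM-1+ over DNAM-1- log2 ratio of Klri2 was -0.06 in AML spleen and 0.06 in normal spleen, a difference of -0.13. The AML over normal log2 ratio of Klrc2 was -0.05 for DNAM-1+ and 0.12 for DNAM-1- cells, a difference of -0.17. That of Klrc3 was -0.09 for DNAM-1+ and 0.04 for DNAM-1- cells, a difference of -0.14, inside its counting interval. That of Klrk1 was -0.02 for DNAM-1+ and 0.07 for DNAM-1- cells, a difference of -0.089.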

How the results depend on the processing

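No paired analysis was possible because each group holds 1 library and the labels do not say which libraries share a mouse. Spleen as a term compares the subsets within AML or normal spleen, not within a mouse. Of 15 alternatives for each subset coefficient, none changed the sign of Klrc1, Klrc2, Klrc3, Klrd1, Klrk1, Klre1 or Klri1. With 5 FPKM added, and with centring on the NK markers, 0 members passed 2-fold in either spleen. Members higher in DNAM-1+ by limma numbered 5 with a floor of 20 FPKM, median-of-ratios scaling, quantile normalization and protein-coding genes alone (chosen after seeing the data), and 0 with no floor. Members lower numbered 2 with NK centring, and 0 with no floor and with no mean-variance trend. Of all genes, 667 were higher and 760 lower in the fit as reported; 0 and 0 passed with no floor, 434 were lower with a floor of 20 FPKM, and 280 were higher (1047 lower) with NK centring, 321 with no trend and 331 with subset alone. Members higher in AML numbered 1 (Klrg1) with a floor of 20 FPKM, quantile normalization and protein-coding genes alone. NK centring moved the median of all subset coefficients by -0.113 and of all AML coefficients by -0.124. The subset coefficient of Klri2 was then -0.11 (-0.0057 rescaled to a common sum, -0.049 with quantile normalization) and that of Klrg1 -0.026, while the AML coefficients were -0.086 for Klrc2, -0.00099 for Klrd1, -0.10 for Klrk1 and -0.020 for Klri2. The cause was not tested.

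Leaving out 1 library at a time, with the tested factor as the single term and the lone sample assumed to vary like the others, left 1 to 2 members higher and 0 lower in DNAM-1+, and 80 to 186 genes higher and 263 to 428 lower. The subset coefficient then ranged from -0.083 to 0.084 for Klri2 and from -0.12 to 0.29 for Klrg1. The AML coefficient, which by construction then mixes unequal numbers of each subset, ranged from -0.18 to 0.74 for Klrc1, -0.20 to 0.27 for Klrc2, -0.14 to 0.086 for Klrc3, -0.16 to 0.21 for Klrk1 and -0.42 to 0.71 for Klri1. All 24 within-library ratios moved by less than their counting interval with 1 FPKM added. The split of reads shared between the Klrc genes was not varied. Read numbers limit Klri1 most, and with 1 library a group no value here measures the spread between mice.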
